A study of Mus musculus with 7 samples.

Results

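Slpi, 6 serpins and 3 cystatins were examined in splenic B cell preparations from mice with a conditional knockout of the transcription factor gene Foxp1 and from WT mice. The 10 protease inhibitor genes were chosen by name, from a deposited expression table of 23845 rows, with earlier results of the same comparison of cKO with WT in view. The differences of these genes between cKO and WT are therefore a description, and counts of calls among them are not read as evidence. RNA was sequenced from splenocytes left after magnetic removal of cells that carry CD43, a surface sialomucin that resting follicular B cells lack. The cKO group held 4 libraries from mice with a conditional, Cre-driven knockout of Foxp1 on the C57Bl/6 background, and the WT group 3 libraries, B6 WT on the same background. The deletion is directed to B lineage cells, so other cells in the preparation keep Foxp1. No WT library is labelled as carrying the Cre, so the Cre and the Foxp1 deletion cannot be told apart. Age and sex are not given in the sources used here, and neither is whether the libraries came from separate animals. P-values here therefore describe only how these 7 samples vary, and that variation may be technical.

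Protease inhibitors limit the damage that proteases do to the cells that store or meet them. Slpi (secretory leukocyte protease inhibitor) blocks serine proteases of neutrophil granules such as elastase and cathepsin G. Serpins are suicide inhibitors that trap a protease after it cuts an exposed loop, and those of clade B act mainly inside cells, where they protect leukocytes from their own granule proteases. Cystatins are tight reversible inhibitors of lysosomal cysteine proteases such as the cysteine cathepsins, some of which process antigen in B cells and other presenting cells.

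Levels are FPKM, fragments scaled to transcript length and to mapped fragments, as the authors deposited them. FPKM give no counts, so depth and counting error per gene are unknown. Foxp1 itself stood at 18.4 to 29.0 FPKM in cKO and 33.4 to 42.7 in WT (exact permutation test over 35 splits, two-sided, p = 0.0571). Every cKO library was below every WT library, but a split other than that by genotype gave a larger difference of means. Libraries ran on 2 lanes: cKO 2, cKO 3 and WT 1 on lane 7, and cKO 1, cKO 4, WT 2 and WT 3 on lane 5. Small RNA genes took up between 39.3% and 58.3% of all FPKM in 6 libraries but 10.4% in cKO 4, which stands apart. All 14 mature B cell markers of a fixed list were detected, and their summed level was 1561 to 2623 FPKM in cKO and 2597 to 3221 in WT. In bulk samples, fewer cells of a type and less RNA per cell cannot be told apart.

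Slpi had the largest difference of the 10 genes. It stood at 66.3, 41.9, 58.3 and 73.7 FPKM in cKO 1 to 4, and at 14.3, 9.33 and 4.90 FPKM in WT 1 to 3. Every cKO library was above every WT library, and the widest gap between libraries lay between the groups. The mean was 60.1 ± 13.6 FPKM in cKO (SD, n = 4) and 9.51 ± 4.70 in WT (SD, n = 3). The log2 fold change was 2.69 (SE 0.35) on the scale of log2(FPKM + 0.5), which understates the change of low genes. Slpi lies on chromosome 2, 164354070 to 164356507, in GRCm38 coordinates, inside a run of genes for related WAP domain inhibitors. The other 14 rows of that run, Wfdc genes between 164176325 and 164743267, were near silent: 10 were listed at 0 in every library and the highest, Wfdc3, averaged 0.0184 FPKM.

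**Figure D1:**
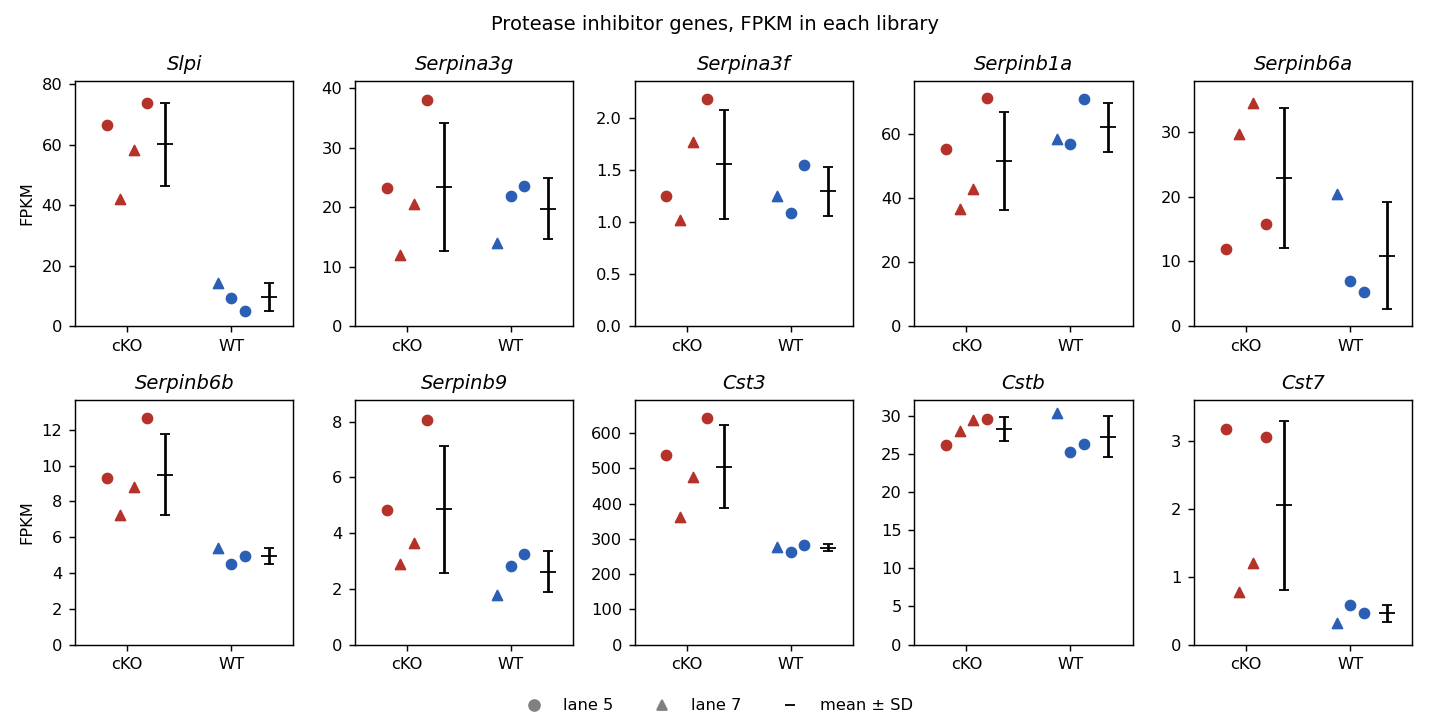
FPKM (vertical axes, each from 0) of the 10 genes in each cKO and WT library, with circles for lane 5 and triangles for lane 7, and the mean ± SD at the right of each group. All cKO points lie above all WT points for Slpi, Serpinb6b, Cst3 and Cst7, whereas in Serpinb6a the triangles lie above the circles.

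The region before the Slpi start is shown with those of Cst3 and Serpinb6b, whose levels ran in parallel, and of Serpinb9 and Serpinb6a, which hold a searched motif. Each line gives the 250 bases before the start, 5′ to 3′ on the strand of the gene, from RefSeq (GRCm38.p6), and capitals mark a motif match.
Slpi, chr2:164356508-164356757, minus strand: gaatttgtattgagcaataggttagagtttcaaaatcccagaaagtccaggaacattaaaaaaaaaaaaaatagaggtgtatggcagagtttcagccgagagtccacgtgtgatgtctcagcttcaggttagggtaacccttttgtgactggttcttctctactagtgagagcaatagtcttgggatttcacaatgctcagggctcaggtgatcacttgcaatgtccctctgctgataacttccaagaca
Cst3, chr2:148875513-148875762, minus strand: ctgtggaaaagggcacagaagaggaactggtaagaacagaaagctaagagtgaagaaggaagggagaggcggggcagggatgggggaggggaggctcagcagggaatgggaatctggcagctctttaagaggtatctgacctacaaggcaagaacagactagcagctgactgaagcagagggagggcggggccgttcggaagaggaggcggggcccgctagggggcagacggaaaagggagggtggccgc
Serpinb6b, chr13:32965011-32965260, plus strand: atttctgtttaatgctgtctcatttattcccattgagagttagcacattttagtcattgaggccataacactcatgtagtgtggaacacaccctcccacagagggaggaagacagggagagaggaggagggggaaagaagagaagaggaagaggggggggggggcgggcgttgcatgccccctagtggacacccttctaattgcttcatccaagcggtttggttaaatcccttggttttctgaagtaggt
Serpinb9, chr13:33004291-33004540, plus strand: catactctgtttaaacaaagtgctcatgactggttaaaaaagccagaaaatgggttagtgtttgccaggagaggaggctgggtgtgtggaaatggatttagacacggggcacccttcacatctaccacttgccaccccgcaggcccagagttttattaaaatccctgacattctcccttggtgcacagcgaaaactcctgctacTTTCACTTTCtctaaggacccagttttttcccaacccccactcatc
Serpinb6a, chr13:34002795-34003044, minus strand: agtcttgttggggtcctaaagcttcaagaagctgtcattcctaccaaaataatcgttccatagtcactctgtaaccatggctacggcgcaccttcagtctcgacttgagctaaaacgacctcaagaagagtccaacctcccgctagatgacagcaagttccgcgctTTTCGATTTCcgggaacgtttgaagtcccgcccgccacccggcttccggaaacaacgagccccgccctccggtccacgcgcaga

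Windows from 250 bases before to 50 after a start were found for 8 of the 10 genes, 10 windows in all. Both strands were searched for TGTTTAC, a forkhead core, and for GAAA followed by a second GAAA after 2 bases of any kind, an interferon response core. The forkhead core was in 0 of the 10 windows, against 3.65% of 32851 windows in the table. The interferon core was in 2 of the 10, against 3.44% of all windows. It lay on the strand opposite to the gene, 46 bases before the Serpinb9 start and 84 bases before a Serpinb6a start. A match is a description of these letters, and the absence of one says nothing about Foxp1 binding.

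The 3 cystatins differed from each other. Cst3 (chromosome 2, 148871732 to 148875468), the secreted cystatin C, was the most abundant of the 10 genes, with 71.2% of their summed FPKM in cKO and 66.4% in WT. It stood at 537.5, 362.0, 475.9 and 643.0 FPKM in cKO 1 to 4, against 276.4, 263.7 and 283.5 FPKM in WT 1 to 3. The cKO libraries spread widely but all lay above WT, with a mean of 504.6 ± 117.5 FPKM in cKO (SD, n = 4) and 274.5 ± 10.02 in WT (SD, n = 3). For Cst3 this came to 0.85 (SE 0.26) as a log2 fold change.

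Cst7 (chromosome 2, 150570415 to 150578944), cystatin F, an inhibitor of cathepsin C in granules of cytotoxic and other immune cells, was the rarest in WT. It stood at 3.18, 0.774, 1.20 and 3.06 FPKM in cKO 1 to 4, against 0.323, 0.583 and 0.471 in WT 1 to 3, so the groups did not overlap and its filter mean was reached through cKO alone. Its log2 fold change was 1.28 (SE 0.40). Cstb (chromosome 10, 78425670 to 78427622), stefin B of the cytosol, was the steadiest, at 26.2 to 29.6 FPKM in cKO and 25.3 to 30.4 in WT, with a log2 fold change of 0.05 (SE 0.18). The other 7 cystatin rows between Cst3 and Cst7 or beside them on chromosome 2 were at 0 in every library.

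The 4 clade B serpins sit within 1.16 megabases of chromosome 13 and did not move as 1 block. Serpinb1a (32842092 to 32851185), an inhibitor of neutrophil elastase and related enzymes, was the highest of them and had the only negative log2 fold change among the 10 genes, -0.30 (SE 0.26), with 36.6 to 71.1 FPKM in cKO and 56.9 to 70.7 in WT. Serpinb6b (32965513 to 32979037), which inhibits granzyme A in the mouse, starts 114.3 kilobases beyond it. Serpinb6b stood at 9.29, 7.25, 8.81 and 12.6 FPKM in cKO 1 to 4, against 5.40, 4.52 and 4.92 in WT 1 to 3, with no overlap and a log2 fold change of 0.85 (SE 0.24).

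Serpinb9 (33004541 to 33017955), the granzyme B inhibitor of cytotoxic cells and of cells they touch, lies 25.5 kilobases beyond Serpinb6b. It stood at 4.85, 2.88, 3.66 and 8.07 FPKM in cKO 1 to 4, against 1.79, 2.83 and 3.24 in WT 1 to 3. The groups overlapped, since cKO 2 was below WT 3, and the log2 fold change was 0.72 (SE 0.35). Serpinb6a (33917918 to 34002794), an intracellular inhibitor of cathepsin G and trypsin-like enzymes, stood at 11.9, 29.7, 34.5 and 15.8 FPKM in cKO 1 to 4, against 20.4, 7.02 and 5.23 in WT 1 to 3. Its groups overlapped through WT 1, which exceeded cKO 1 and cKO 4, and the log2 fold change was 1.15 (SE 0.51). The other 11 Serpinb rows of this stretch were below 1 FPKM, 7 of them at 0 in every library. Reads of close copies in this family may have been split between genes, so the levels of Serpinb6a, Serpinb6b and Serpinb9 are uncertain to that extent.

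Serpina3g and Serpina3f belong to a family of near-identical copies on chromosome 12 and are given in the table with overlapping positions (104214544 to 104241934 and 104214544 to 104221129), so the split of reads between them is uncertain. Serpina3g, which inhibits lysosomal cathepsins in the mouse, stood at 23.2, 12.01, 20.5 and 37.9 FPKM in cKO 1 to 4, against 13.9, 21.8 and 23.5 in WT 1 to 3. The groups overlapped throughout, with a log2 fold change of 0.16 (SE 0.37). Serpina3f was low, at 1.02 to 2.19 FPKM in cKO and 1.09 to 1.55 in WT, with a log2 fold change of 0.17 (SE 0.27).

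Counted together, 9 of the 10 log2 fold changes were positive, against 38.5% over the 10065 genes tested. The median was 0.78 for the 10 and -0.09 for all genes tested. In 4 genes, Slpi, Serpinb6b, Cst3 and Cst7, every cKO library exceeded every WT library, a pattern seen in 7.99% of all genes, and in 0 of the 10 every cKO library was lower, against 2.14%. By limma's moderated test at an adjusted p under 0.05, 1 of the 10, Slpi, was among the genes called higher in cKO, which were 1.27% of all genes, and 0 of the 10 were among those called lower, 0.0497% of all genes (1.32% in either direction). At an unadjusted p under 0.05 limma had 1073 genes in either direction. With the lane as a term, 6 of the 10 were called higher in cKO (Slpi, Serpinb6a, Serpinb6b, Serpinb9, Cst3 and Cst7), where 9.59% of all genes were, and 0 of the 10 lower, where 1.19% were.

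The order of mean levels differed between the genotypes in the place of Slpi, and Cst7 and Serpina3f changed places. In cKO the order was Cst3, Slpi, Serpinb1a, Cstb, Serpina3g, Serpinb6a, Serpinb6b, Serpinb9, Cst7 and Serpina3f. There Cst3 did not overlap Slpi and Serpinb1a did not overlap Cstb, while all other neighbours overlapped in range. In WT the order was Cst3, Serpinb1a, Cstb, Serpina3g, Serpinb6a, Slpi, Serpinb6b, Serpinb9, Serpina3f and Cst7. There the neighbours from Serpina3g to Serpinb6b overlapped in turn, and the other neighbours did not.

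Within lanes the cKO difference of Slpi was 1.76 in lane 7 and 3.27 in lane 5 on the log2 scale. Each of the other 5 genes called with the lane term was higher in cKO in both lanes, by 0.53 (Serpinb6b) to 0.84 (Cst7) in lane 7 and by 0.94 (Serpinb9) to 1.82 (Cst7) in lane 5. Lane 7 holds a single WT library. Whether the cKO difference itself differed between lanes was tested with an interaction term, and 0 of the 10 genes passed in limma (0.0497% of all genes did). At an unadjusted p under 0.05 in limma there were 2 of the 10, and 213 of all 10065 genes tested. These counts rest on the single WT library of lane 7 and on genes chosen for their cKO values, and nothing is read from them.

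**Figure D2:**
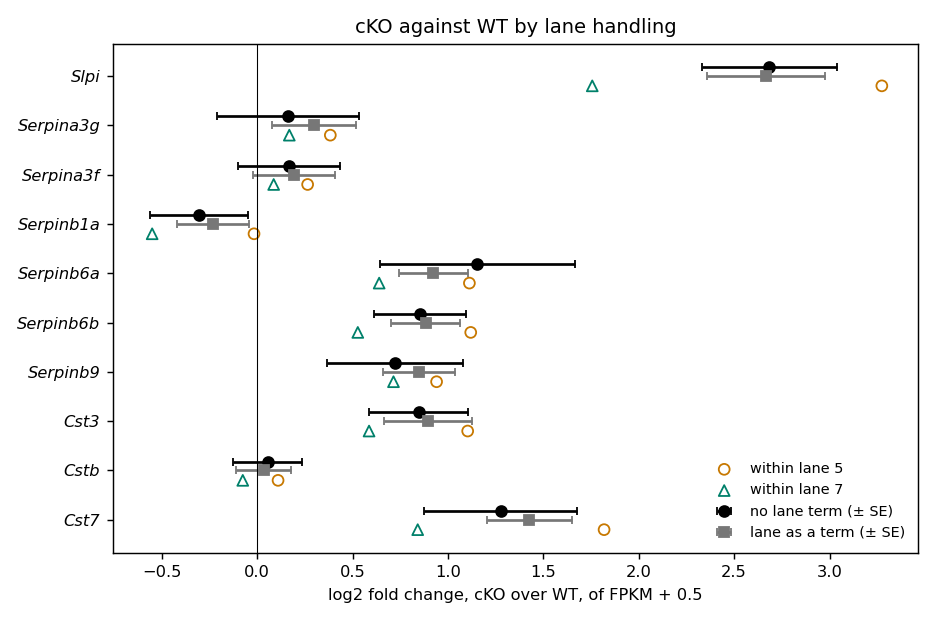
Log2 fold change of cKO over WT (horizontal axis, FPKM + 0.5) for each gene, without a lane term and with it (± SE), and the difference of means within lane 5 and within lane 7. Slpi lies between 1.76 and 3.27 by every handling of the lane, and Serpinb1a is the only gene below 0 by all of them.

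The lane was not used to choose the genes, so the difference between lanes could be tested, with the genotype in the model. Of the 10, 4 were called, 1 higher and 3 lower in lane 7. Serpinb6a was higher in lane 7, at 20.4 to 34.5 FPKM, than in lane 5, at 5.23 to 15.8 FPKM, with no overlap and a log2 difference of 1.39 (SE 0.18, limma adjusted p = 0.000312). Such a difference had to be read against the rest of the table, because 66.9% of all genes were called between lanes, 8.67% higher and 58.2% lower in lane 7, and the median gene stood 0.51 lower in lane 7 (a log2 difference of -0.51). Cst7 (-0.90, SE 0.22, limma adjusted p = 0.00513), Serpina3g (-0.81, SE 0.22, limma adjusted p = 0.00785) and Serpinb9 (-0.76, SE 0.19, limma adjusted p = 0.00522) were called lower in lane 7. Centring each library on its median ended these 3 calls, with log2 differences of -0.41, -0.32 and -0.27, kept Serpinb6a at 1.88 and called Cstb higher in lane 7 at 0.62. For Slpi the lane difference was 0.11 (SE 0.31, limma adjusted p = 0.757), and its sign changed without WT 1 (-0.50) and without WT 3 (-0.13).

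**Figure D3:**
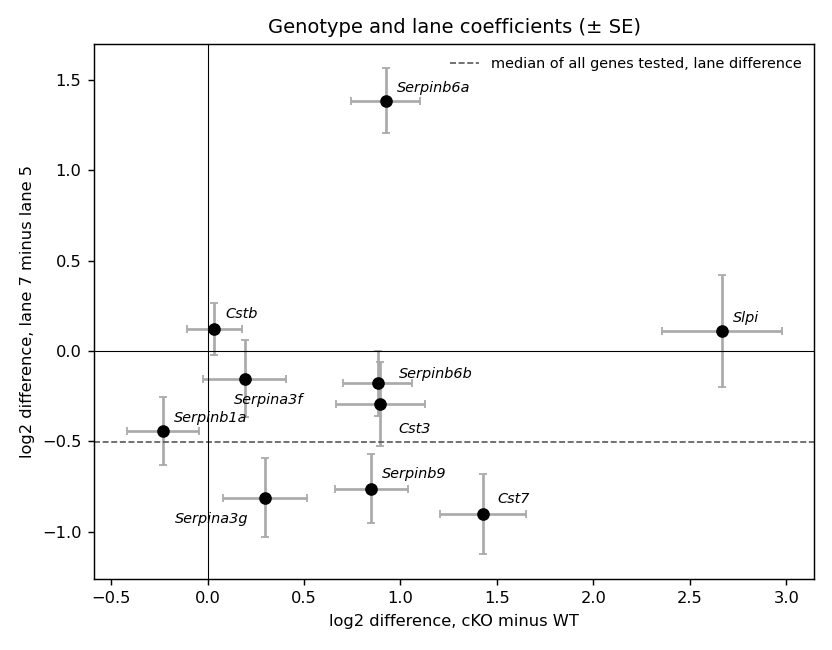
Log2 difference of cKO minus WT (horizontal axis) against log2 difference of lane 7 minus lane 5 (vertical axis) from 1 model with both terms, ± SE, for the 10 genes. Slpi stands apart to the right at 2.67 and Serpinb6a at the top at 1.39, and the dashed line is the median lane difference of all genes, -0.51.

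The ratio of Serpinb6b to Serpinb6a also differed between lanes. Serpinb6b made up 19.6% and 20.3% of the summed FPKM of both genes in the cKO libraries and 20.9% in the WT library of lane 7. In lane 5 its share was 43.8% and 44.5% in cKO and 39.2% and 48.5% in WT. The shares did not overlap between lanes, and within lane 5 the cKO values lay between the WT values.

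Markers of other cell types moved with the genotype in the same libraries. Of 25 markers of macrophages, monocytes and dendritic cells, all of them tested, limma called 8 higher and 0 lower, and their summed level was 1267 to 1617 FPKM in cKO and 396.0 to 673.3 in WT. Lyz2, a lysozyme of myeloid cells, and Tyrobp, a signalling adaptor, were the most abundant, with log2 fold changes of 1.80 and 1.39, each with a limma adjusted p of 0.0447. Of 14 neutrophil markers, 8 were tested and 3 called higher, with sums of 93.3 to 206.0 FPKM in cKO and 30.3 to 42.9 in WT. Of those 8, 6 had a WT mean under 1 FPKM and passed the filter through cKO, among them Prtn3 and Mpo, which are 2 of the 3 called. The same held for Fcgr1, 1 of the 8 called in the myeloid list. Of 11 NK cell markers, 8 were tested and 1 called higher, with sums of 41.4 to 98.8 FPKM in cKO and 17.8 to 24.8 in WT. No marker of these 3 lists was at 0 in every library. Erythroid, T cell, platelet, stromal and plasma cell markers gave 0 calls in limma. All 8 erythroid markers had positive log2 fold changes, with a median of 1.98. Their sums spread widely and overlapped, at 89.2 to 2445 FPKM in cKO and 71.4 to 809.6 in WT. At an unadjusted p under 0.05, 22 myeloid, 8 neutrophil, 7 NK cell, 5 platelet, 1 T cell, 1 stromal and 1 plasma cell marker were higher in cKO. At that threshold 1 plasma cell and 5 mature B cell markers were lower. The mature B cell markers gave 0 calls in limma, with 0 of 14 log2 fold changes positive and a median of -0.59. Under the lane term limma's calls were more, with 24 myeloid, 7 neutrophil, 7 NK cell, 8 T cell, 5 platelet, 1 stromal and 1 plasma cell marker higher in cKO and 1 plasma cell and 2 mature B cell markers lower. The protease genes Prtn3, Elane, Gzma and Gzmb stand in these marker lists as well as in those of proteases. The part of these cells in the levels of Slpi, the serpins and the cystatins was not tested.

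Levels were also set against the marker sums of the same library, as a description of the values by which the genes were chosen. Both sums were higher in every cKO library than in any WT library. A gene with equal FPKM in all libraries therefore falls lower in cKO on these scales. The share of all genes in each direction was not computed, so nothing is read from the counts. Per 100 FPKM of the macrophage, monocyte and dendritic sum, Slpi had 5.24, 2.79, 3.61 and 4.68 FPKM in cKO 1 to 4, against 2.12, 2.36 and 1.23 in WT 1 to 3. It was the 1 gene of the 10 with all cKO values above all WT values on this scale. Serpina3f, Serpinb1a and Cstb had all cKO values below all WT values. Serpinb6b, higher in cKO as FPKM, had 0.482 to 0.801 in cKO and 0.801 to 1.23 in WT on this scale, where cKO 4 and WT 1 were equal as rounded. Cst3 was lower in cKO on average, at 34.2 ± 8.88 in cKO (SD, n = 4) and 59.6 ± 16.2 in WT (SD, n = 3), with overlap, and Serpina3g, Serpinb6a, Serpinb9 and Cst7 overlapped too.

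Per 100 FPKM of the neutrophil sum, none of the 10 genes had all cKO values above all WT values. Here too a gene with equal FPKM in all libraries falls lower in cKO, and the share of all genes was not computed. Slpi overlapped, at 27.4 to 71.1 FPKM in cKO and 16.2 to 40.9 in WT, as did Serpinb6a, Serpinb9 and Cst7. The other 6 genes had all cKO values below all WT values, among them 2 that were higher in cKO as FPKM. These were Cst3, at 237.0 to 576.0 in cKO and 615.0 to 936.0 in WT, and Serpinb6b, at 4.74 to 9.96 in cKO and 10.5 to 16.3 in WT.

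Proteases, many of them targets of such inhibitors, were compared next. Of 36 genes in 3 lists, 17 reached a mean of 1 FPKM, and limma called 3 higher in cKO and 0 lower. Gzma, a granzyme of NK and cytotoxic T cells, stood at 28.6, 21.3, 17.98 and 20.1 FPKM in cKO 1 to 4, against 6.99, 5.78 and 6.38 in WT 1 to 3 (log2 fold change 1.69, SE 0.22, limma adjusted p = 0.0447). The neutrophil proteases Prtn3, proteinase 3, and Ctsg, cathepsin G, rose by 1.93 (SE 0.36, limma adjusted p = 0.0484) and 1.71 (SE 0.32, limma adjusted p = 0.0484). Elane, neutrophil elastase and the best known target of Slpi, stood at 0.828 to 2.22 FPKM in cKO and 0.137 to 0.650 in WT, with a log2 fold change of 1.27 (SE 0.32, limma adjusted p = 0.116). Prtn3, Ctsg and Elane were all below 1 FPKM in WT, so they reached the filter mean through cKO alone. The calls of Gzma, Prtn3 and Ctsg were lost when any 1 cKO library, WT 2 or WT 3 was left out (0 proteases called), and without WT 1 limma called 6.

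Cystatins act on cysteine cathepsins, and the list of cathepsins here also holds others, such as the aspartic protease Ctsd. Of 13 tested, counting legumain, limma called 0, with 4 higher at an unadjusted p under 0.05 and 5 called higher with the lane as a term. The most abundant, Ctss, cathepsin S of antigen presentation, stood at 195.6 to 432.3 FPKM in cKO and 278.2 to 350.9 in WT, with a log2 fold change of -0.15 (SE 0.30, limma adjusted p = 0.938). Ctsz and Ctsh followed in abundance, with log2 fold changes of 0.01 and -0.27. Ctsd and Ctsl had log2 fold changes of 1.41 (SE 0.38, limma adjusted p = 0.143) and 1.13 (SE 0.25, limma adjusted p = 0.0839), with groups that did not overlap in either gene. Gzmb, granzyme B and the target of Serpinb9, averaged 0.876 FPKM over all libraries and was not tested.

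Other protease inhibitors were mostly silent. Of 132 genes in 4 lists (57 further serpins, 20 cystatins and stefins, 20 WAP domain genes and 35 others), 59 were at 0 in every library and 10 reached a mean of 1 FPKM. All 20 further cystatins and stefins fell short of it, the highest being Stfa2l1 at 0.417 FPKM over all libraries. Limma called 1 of those 10 higher in cKO and 0 lower, with 5 higher and 1 lower at an unadjusted p under 0.05. The gene called was Serpinb10, a clade B serpin of blood-forming cells, at 2.63, 2.72, 1.59 and 3.09 FPKM in cKO 1 to 4, against 0.557, 0.477 and 0.690 in WT 1 to 3. Its log2 fold change was 1.46 (SE 0.26, limma adjusted p = 0.0467), its WT levels were all under the filter mean, and the call was lost when any 1 library was left out. Serpini1, neuroserpin, was the 1 other serpin tested, with a log2 fold change of -0.76 (SE 0.30, limma adjusted p = 0.395). It was called lower with the lane as a term (limma adjusted p = 0.0258), with median centring and with quantile normalization. The metalloproteinase inhibitor Timp2 and the cathepsin L propeptide homolog Ctla2b had log2 fold changes of 1.35 (SE 0.34) and 1.24 (SE 0.31), each with a limma adjusted p of 0.116. With the lane as a term both were called higher (limma adjusted p = 0.00209 for Timp2 and 0.00163 for Ctla2b), as was the Kunitz inhibitor Spint1 (limma adjusted p = 0.0194). The most abundant of the 35 others were Cast, the calpain inhibitor, at 0.10, Ctla2a at 1.06 and Spint2, also a Kunitz inhibitor, at -0.14 on the log2 scale. The 1 WAP gene tested, Wfdc17, stood at 0.90.

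**Figure D4:**
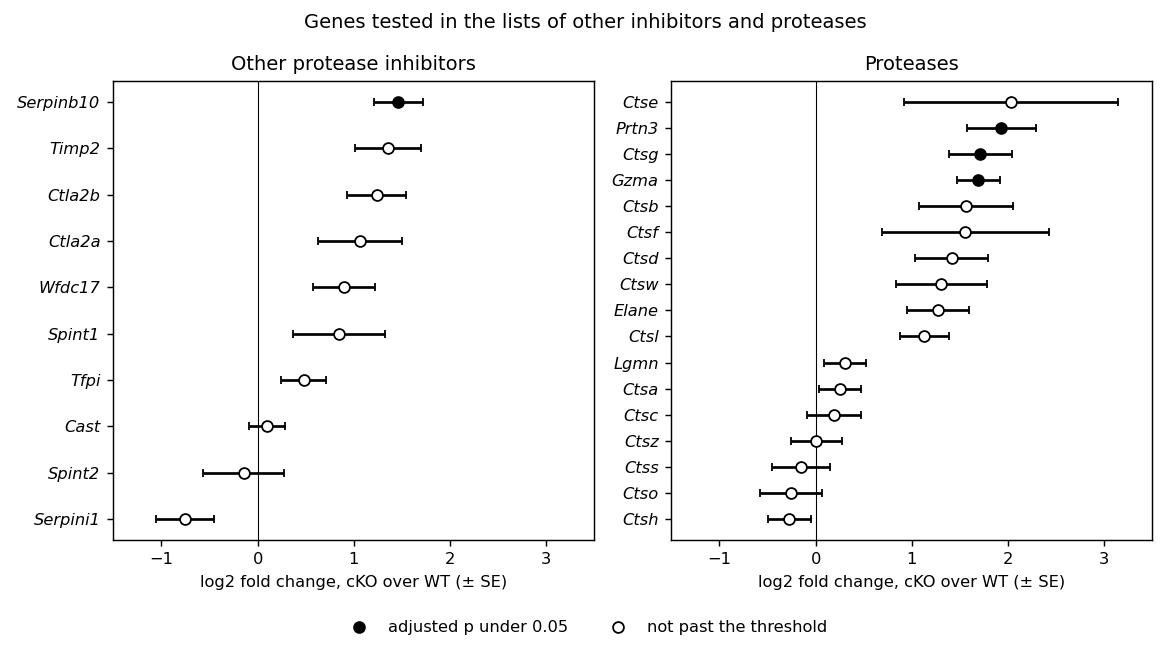
Log2 fold change of cKO over WT ± SE (horizontal axes) for the 10 other protease inhibitors and 17 proteases tested, with filled points for those past an adjusted p of 0.05 in limma. Filled points are Serpinb10 on the left and Prtn3, Ctsg and Gzma on the right.

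The genes whose levels ran most like each inhibitor were found over the 7 libraries by the root mean square difference of centred log2 values, among 9498 genes. Slpi was nearest to Tnfrsf21, a death receptor of the TNF receptor family (0.42), Lipc, hepatic lipase (0.46), and Fcgr4, an Fc receptor of myeloid cells (0.48), all loose matches beside its own spread of 1.40. Tnfrsf21 stood at 12.6, 7.79, 13.4 and 16.8 FPKM in cKO 1 to 4, against 3.11, 2.42 and 2.11 in WT 1 to 3. Cst7 was nearest to Slc12a7 (0.14), Fndc7 (0.16) and Apobr (0.17), and Serpinb6a to Sepp1 (0.10), Il1a (0.14) and Il1r2 (0.16).

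Cst3 and Serpinb6b differed from each other by 0.08, the closest of the 45 pairs among the 10 genes, and Slpi and Serpinb1a by 1.56, the widest. Outside the 10, Cst3 was nearest to Entpd1 (0.07), Man2b1 (0.08) and Ext1 (0.09), and Serpinb6b to Il15 (0.05), Atox1 (0.07) and Lacc1 (0.09). Serpinb9 was nearest to Rtn1, Cdc42bpb and Etv6 (0.10 to 0.11), Serpina3g to Elovl1 and Ptpn9 (0.09 to 0.10), Serpina3f to Ifi30, Slc35b1 and Cox5b (0.09 to 0.12), Serpinb1a to Msl3, Tfb2m and Rapgef6 (0.04 to 0.07) and Cstb to Rab11a, Ndufs4 and Snrnp27 (0.03 to 0.05).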

How the data were processed

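FPKM per gene and library were deposited by the authors with a status per value, per the file headers. TopHat2, Cufflinks, Cuffdiff and the build mm9 are listed, with no roles, per the submitters' processing notes. Positions in the tables mostly matched RefSeq genes of GRCm38 and are given as such. The Serpina3g row starts at 104214544, as Serpina3f does, while the 250 bases before its RefSeq start end at 104236146. The Serpinb6b row starts at 32965513, while the 250 bases before its RefSeq start end at 32965260. The authors' deposited Cuffdiff table compares arms q1 and q2, whose genotypes no header names. Its test statistic, a score deposited by the authors, is quoted, and its deposited p-values and q-values were not used. Of 23845 rows, 23508 had an OK status throughout. The 10065 with a mean FPKM of at least 1 were tested on log2(FPKM + 0.5) with limma 3.58.1 in R 4.3.3 (lmFit, eBayes with a trend), two-sided, Benjamini-Hochberg adjusted over all of them, at 0.05. The design spoke of RPKM or FPKM, and the values are FPKM. Samples were grouped by title and lanes read from the description labels. The 10 genes and the lists were chosen with earlier results of these data known. Genes named outside the 10 were those past the threshold, the 3 most abundant of each list the 2 most abundant of a marker list and the 3 nearest in pattern, of which 1 is not reported here. Those under the filter are mostly left unnamed, markers are given mainly as sums, and Ctsd, Ctsl, Timp2, Ctla2b and Wfdc3 were named after their values were seen. The fit was tested on simulated data. Figures used matplotlib 3.10.9.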

Additional observations from a re-analysis of the deposited data

Results flagged for a closer look

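Dixon's gap was computed for 86 genes over the 4 cKO libraries, and 5 genes had a library far from the remaining 3. Chance gives about 1 in 20, and none of the 5 was among the 10 genes described above. Ctla2a had 7.22 FPKM in cKO 1, below a range of 19.5 to 21.0 FPKM elsewhere (gap 0.894 of the range). Mcpt8, a basophil protease gene, had 2.26 FPKM in cKO 1, above 0.274 to 0.540 FPKM elsewhere (gap 0.866). Wfdc18 had 0.0438 FPKM in cKO 2 and was listed at 0 in cKO 1, 3 and 4. The B cell gene Cd79b had 775.4 FPKM in cKO 4, above 611.4 to 613.2 FPKM elsewhere (gap 0.989). The platelet gene Tubb1 had 47.5 FPKM in cKO 3, above 15.2 to 19.4 FPKM elsewhere (gap 0.868).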

How the results depend on the processing

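Slpi, Serpinb6a, Serpinb6b, Serpinb9, Cst3 and Cst7 had positive log2 fold changes under all alternatives run for them, and Serpinb1a a negative one, while Serpina3g, Serpina3f and Cstb changed sign under some. Of 207 values of single genes, 201 moved by less than the spread between libraries and 6 by more (Slpi and Serpinb6b within either lane, Cstb within lane 7 and with the lane term plus centring).

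The counts moved more, and the causes were not tested. They are given for all genes higher, all genes lower, the 10 genes, other inhibitors and proteases. A pseudocount of 1 gave 54, 1, 1, 0 and 1, and a pseudocount of 0.1 gave 1 lower gene. With no filter on low values limma called 0 higher genes, 1 lower, 0 of the 10, 0 inhibitors and 0 proteases, over 23508 genes and with 2201 at an unadjusted p under 0.05. A mean FPKM of at least 5 gave 6, 0, 1, 0 and 1. Median centring gave 233, 71, 3, 2 and 1, and quantile normalization gave 29 lower genes and 1 protease. The lane term gave 965, 120, 6, 5 and 9. Lane 5 alone gave 587, 25, 4, 4 and 7, and lane 7 alone 247, 36 and 2 of the 10. Chosen after seeing the data, the lane term with centring gave 952, 1276, 6, 5 and 8, and with quantile normalization 814, 1168, 5, 5 and 7. Leaving out 1 library gave 0 to 216 higher genes, 0 to 4 lower, 0 to 1 of the 10 (Slpi, without WT 1), 0 to 2 inhibitors and 0 to 6 proteases, while limma had 608 to 1967 genes under an unadjusted p of 0.05.

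Whether the same replicate numbers pair libraries could not be told from the values. Deviations of same-numbered libraries correlated at -0.407, -0.502 and -0.692, but each of these pairs was split between the lanes. Pairs of cKO and WT from the same lane correlated at 0.293 to 0.736. With the replicate number as a block limma called 0 genes in every count (1154 at an unadjusted p under 0.05).

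Of the 10 genes 4 were called between lanes, where 66.9% of all genes were. With no filter 1 of the 10 was called, and 5411 of 23508 genes. A mean of at least 5 gave 2 of the 10 and 4247 of 6456 genes. Centring gave 2 of the 10 and 4848 of 10065 genes. Leaving out 1 library gave 4 to 5 of the 10 and 5783 to 6648 genes. With no genotype term 2 of the 10 were called at an adjusted p under 0.05 in limma. Over all genes 6486 had an unadjusted p under 0.05 in limma, which is another threshold, so these counts cannot be compared. Nothing is read from these counts about the 10 genes. The interaction called 0 of the 10, and 1 with robust eBayes (Slpi), where 21 of 10065 genes were called. It could not be fitted without WT 1, the single WT library of lane 7. FPKM give no counts, so what depth limits could not be stated.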

Other observations

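The authors' deposited table gives Cuffdiff's test statistic for arm q2 over arm q1 made by the authors in the same study, so it is no independent evidence. In the authors' deposited table the statistic was 5.76 for Slpi, 2.89 for Cst7, 2.00 for Serpinb6b, 1.90 for Serpinb6a, 1.77 for Serpinb9 and 1.74 for Cst3. In the authors' deposited table it was 0.33 for Serpina3g, 0.15 for Cstb, 0.12 for Serpina3f, -0.62 for Serpinb1a and -1.39 for Foxp1.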
